A study of Caenorhabditis elegans with 9 samples.

Results

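Transcripts recovered with GFP-tagged HZL-1 under the promoter of its own gene were described in dauer larvae of Caenorhabditis elegans, in 1 library labelled aak(0) and 1 labelled daf-2. All protein-coding genes with at least 100 reads in either library were taken, which were 15009 of the 20191 protein-coding genes listed. The animals of both libraries were hermaphrodites carrying a daf-2 mutation, an hzl-1 mutation and the extrachromosomal array Ex(hzl-1p::hzl-1::GFP). In those labelled aak(0) the AMPK genes aak-1 and aak-2 were lost as well. They were kept at 25 °C for 96 hours, to day 2 of dauer, fixed with formaldehyde, and the RNA was taken from anti-GFP beads and selected for poly(A). An extrachromosomal array is a transgene outside the chromosomes that is not passed to every cell or every animal. The series holds 7 more libraries, made with an intestinal promoter, and no input RNA was analysed here. How abundant a transcript was and how well it was recovered are therefore joined in its level. In whole animals, fewer cells of a type and less RNA per cell cannot be told apart.

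AMP-activated protein kinase (AMPK) senses a falling energy charge, and aak-1 and aak-2 encode its alternative catalytic subunits in this worm. The insulin/IGF receptor gene daf-2 controls entry into dauer, a non-feeding larval stage that lives on stored fat and depends on AMPK to ration it. Arginine kinase transfers phosphate between ATP and arginine, so that phosphoarginine buffers ATP in invertebrate cells as phosphocreatine does in vertebrates. HMIT proteins are proton-coupled carriers of myo-inositol, an osmolyte and the precursor of inositol lipids.

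With 1 library per genotype there is no replicate check, and no p-value was computed. Gene reads totalled 24035823 in the library labelled aak(0) and 58132094 in the library labelled daf-2, and levels are given as CPM, the reads of a gene scaled to the same total of gene reads. Ribosomal RNA took 29.5% and 70.1% of those reads, so that protein-coding reads were close in number, 16177921 and 16735120. A single gene, argk-1, held 55.4% of the protein-coding reads of the library labelled aak(0). Entries that name no gene took 62.1% and 29.6% of all reads, and reads outside any annotated feature took 48.6% and 4.11%.

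The reads per gene were not spread smoothly. In the library labelled daf-2 they bunched near 293, 590 and 861 reads, with a shallow further maximum at 747, and the smoothed number of genes was 5.48-fold higher at 293 reads than in the trough at 429 reads. In the library labelled aak(0) they bunched near 161 and 299 reads, with a drop of 1.84-fold between the first bunch and the trough at 255 reads, and further maxima near 805 and 1106 reads held few genes. The first bunch is called a read step here. A step was worth 6.70 CPM in the library labelled aak(0) and 5.04 CPM in the library labelled daf-2. Why reads came in steps was not tested. Exact 95% binomial intervals on reads cover counting error only, and they treat every read as a separate molecule, although reads came in steps. Most single-gene ratios are therefore given with a step interval, the same exact binomial interval with 1 step taken as 1 count. A gene with 0 reads in 1 library and fewer than 3 steps in the other was read as not resolved at this depth.

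**Figure D1:**
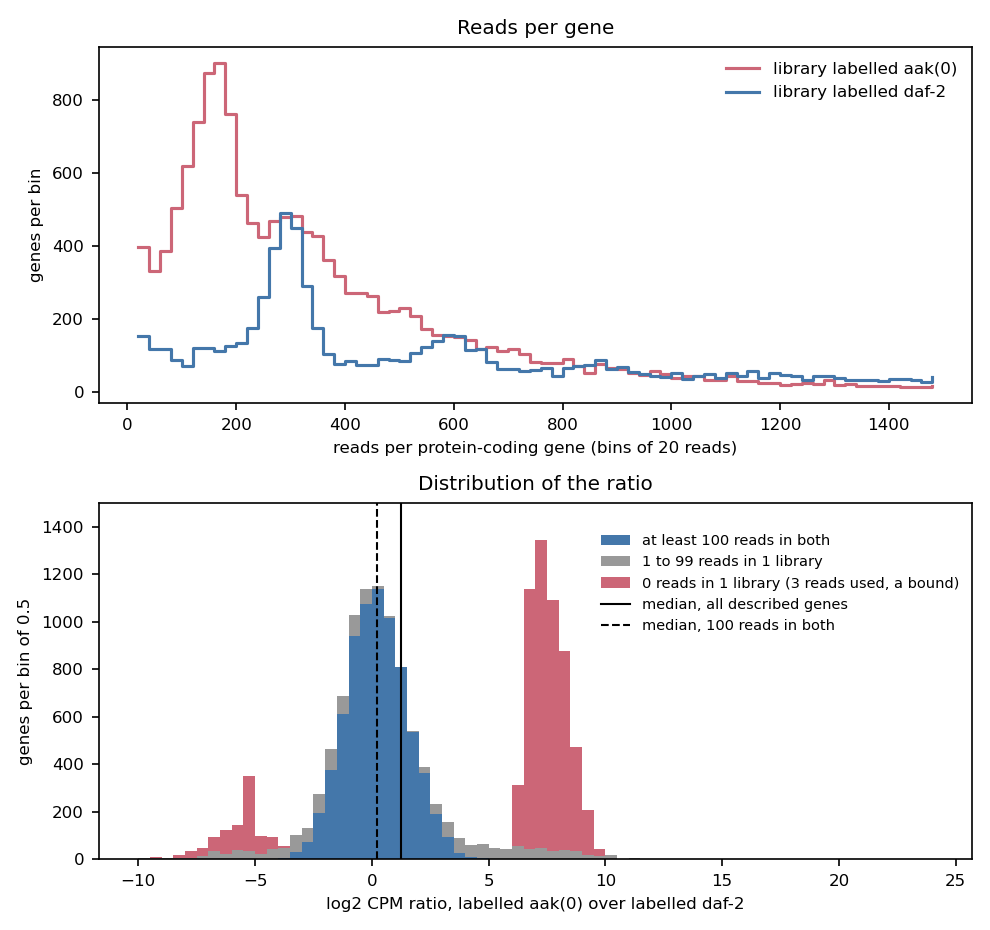
Top, number of protein-coding genes (vertical axis) by reads per gene (horizontal axis, bins of 20 reads) in each library of the endogenous-promoter pair. The library labelled daf-2 peaks near 293 and 590 reads and the library labelled aak(0) near 161 and 299. Bottom, number of described genes by log2 CPM ratio, labelled aak(0) over labelled daf-2, stacked by how the gene was detected. Genes with 0 reads in 1 library form the separate humps on both sides, and the lines mark the medians of 1.25 and 0.20.

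The pair differed most in argk-1, which encodes an arginine kinase. The gene lies on chromosome V at 16103894 to 16105950 (build WBcel235) and had 8965110 reads in the library labelled aak(0) and 2 in the library labelled daf-2. These are 372990 CPM and 0.0344 CPM. The log2 ratio was 23.37 (95% interval on reads 21.52 to 26.42), and the lower limit of the step interval was 14.29. This gene gave 37.3% of all gene reads of the library labelled aak(0).

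The second gene was hmit-1.1, which encodes a myo-inositol transporter, on chromosome V at 18516789 to 18523875. It had 303233 reads (12616 CPM) in the library labelled aak(0) and 0 in the library labelled daf-2. Against a floor of 3 reads it was at least 244462-fold higher in the library labelled aak(0), and against a floor of 3 read steps at least 834-fold. Its neighbour hmit-1.2, of the same family, had 178 and 337 reads, a log2 ratio of 0.35 (step interval -5.88 to 6.70).

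The genes next to argk-1 and hmit-1.1 did not share these values. Beside argk-1, cth-1 had 196 and 0 reads, srxa-16 had 127 and 0, and str-7 had 2 and 0. Near hmit-1.1, slo-1, a potassium channel gene, had 425 and 742 reads. Each of these is under 3 read steps in both libraries. Over 9 described phosphagen and inositol genes, argk-1 and hmit-1.1 among them, the median log2 ratio was 0.27. Of these, 3 lay at least 2-fold above the median of the described genes and 4 below, against 42.3% and 36.3% of all described genes. F46H5.3 and ZC434.8, for predicted arginine kinases, had more reads in the library labelled daf-2, and ZC434.8 was named as the extreme of this list. F46H5.3 had 751 and 8315 reads, a log2 ratio of -2.19 (step interval -3.80 to -0.68). ZC434.8 had 10 and 1374 reads, a log2 ratio of -5.83, and at 4.69 steps in the higher library its step interval has an upper limit of 0.54.

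The tagged gene and the AMPK genes were read as a check of the labels. The hzl-1 gene (listed as C44H9.4, chromosome V at 12835708 to 12839783) had 11527 reads (480 CPM) in the library labelled aak(0) and 0 in the library labelled daf-2, although both labels name the hzl-1::GFP array. It was at least 9293-fold higher against a floor of 3 reads, and at least 31.7-fold against a floor of 3 read steps. The gene aak-2 (chromosome X at 16796087 to 16803357) had 92248 reads (3838 CPM) in the library labelled aak(0) and 3937 (67.7 CPM) in the library labelled daf-2. Its log2 ratio was 5.82 (95% interval on reads 5.78 to 5.87, step interval 5.09 to 6.79), a 56.7-fold excess in the library whose label says the gene is lost. Counts over the whole gene also take reads from exons outside a deletion, so the presence of aak-2 reads alone does not test the label. The cause of the 56.7-fold excess of aak-2 and of the 0 reads of hzl-1 in the library labelled daf-2 was not tested. Both genes go against the labels, and the libraries are called by their labels throughout. Each direction given here rests on those labels.

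The other catalytic subunit gene, aak-1, had 638 and 1150 reads, or 26.5 CPM and 19.8 CPM, with a log2 ratio of 0.42 (step interval -2.01 to 2.83). Reads of daf-2 itself were 2474 and 10098, or 103 CPM and 174 CPM, with a log2 ratio of -0.76 (step interval -1.75 to 0.14). Neither interval excludes 0. Of the genes beside hzl-1 and aak-2, C44H9.6 had 908 and 0 reads, C44H9.5 had 331 and 679, and mec-4, a touch-receptor channel gene next to aak-2, had 539 and 1.

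Libraries made with the intestinal promoter gave the same order for argk-1 and hmit-1.1 and another for aak-2. Their values are FPKM, fragments divided by transcript length and sequencing depth, and can be set beside CPM only by order. The level of argk-1 was 3601, 905 and 2558 FPKM in the 3 libraries labelled aak(0), 0.04, 0 and 0 FPKM in the 3 labelled daf-2, and 1 FPKM in the library of GFP alone, which is labelled aak(0). The level of hmit-1.1 was 129, 523 and 473 FPKM against 0, 0 and 0, and 0.35 FPKM with GFP alone. For both genes the groups of HZL-1 libraries did not overlap. The level of aak-2 was 0, 2.11 and 3.36 FPKM in the HZL-1 libraries labelled aak(0) and 6.13, 5.31 and 7.90 FPKM in those labelled daf-2. This order was opposite to that of the endogenous pair. With GFP alone, in a library also labelled aak(0), aak-2 was at 8.32 FPKM, above all of these. The level of hzl-1 was 6.25, 18.67 and 17.53 FPKM against 2.01, 11.44 and 10.38 FPKM, groups that overlapped, and 3.04 FPKM with GFP alone.

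**Figure D2:**
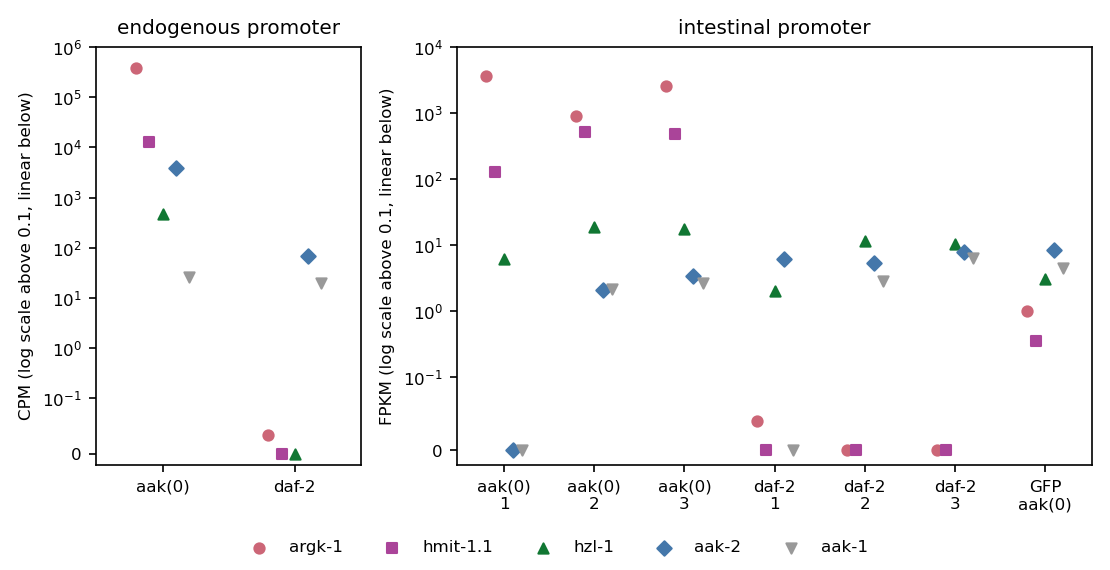
Levels of argk-1, hmit-1.1, hzl-1, aak-2 and aak-1 in each library, left in CPM for the endogenous-promoter pair and right in FPKM for the intestinal-promoter libraries, on axes that are logarithmic above 0.1 and linear below. Each point is 1 library, named by its label. In both sets argk-1 and hmit-1.1 are at or near 0 in the libraries labelled daf-2. On the left aak-2 is higher in the library labelled aak(0). On the right it is higher in the HZL-1 libraries labelled daf-2 than in those labelled aak(0), and highest with GFP alone, in a library also labelled aak(0).

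Over all 15009 described genes the median log2 ratio was 1.25 (quartiles -0.51 and 7.10), and this middle value falls between separate groups of genes. At least 100 reads in both libraries were found for 7485 genes, whose median was 0.20 (quartiles -0.68 and 1.08). A further 5905 genes had 100 reads in the library labelled aak(0) alone and 1619 in the library labelled daf-2 alone, and such genes had to differ by the way they were chosen. At least 2-fold above the median of the described genes were 6352 genes (42.3%), and at least 2-fold below it 5451 (36.3%). Among genes with 100 reads in both, 1676 (22.4%) lay at least 2-fold above their own median and 1637 (21.9%) at least 2-fold below. The ratio also followed the level. Genes with a mean of 10 to 30 CPM had a median log2 ratio of 0.66, those of 30 to 100 CPM -0.48, those of 100 to 300 CPM -1.01, and the 58 genes above 300 CPM -1.32.

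**Figure D3:**
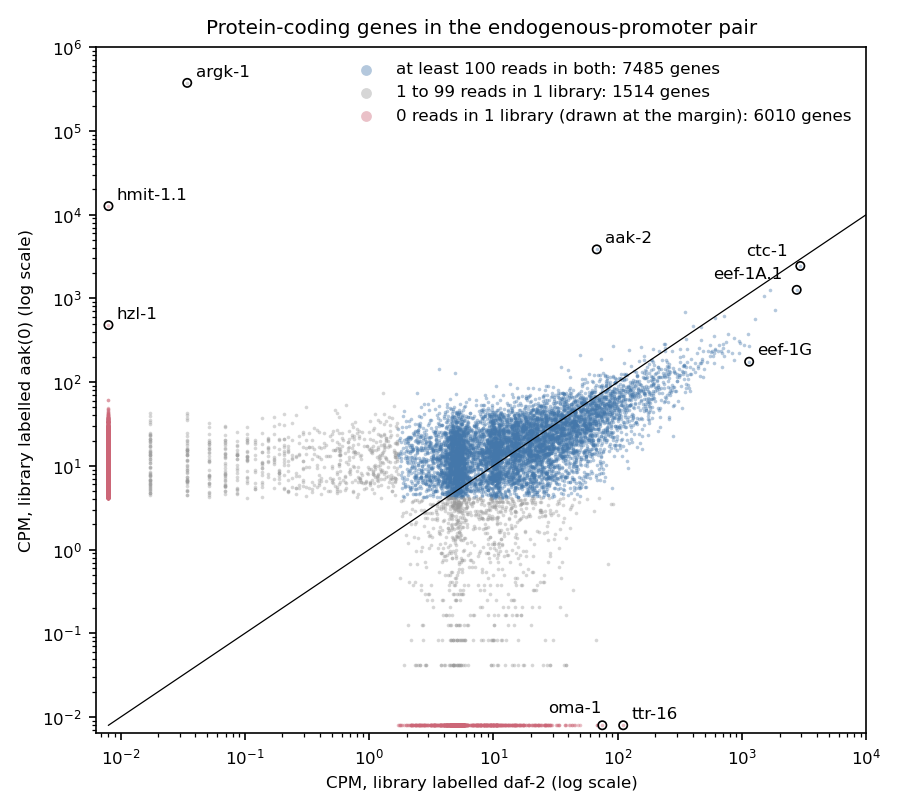
Level of each described gene in CPM in the library labelled daf-2 (horizontal axis, log scale) and in the library labelled aak(0) (vertical axis, log scale), with the line of equal CPM. Genes with 0 reads in 1 library are drawn at the margin, at no measured level. Above about 100 CPM most genes lie below the line, while argk-1, hmit-1.1, hzl-1 and aak-2 stand far above it.

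Genes seen in 1 library only mostly had few reads in that library. No read was found in the library labelled daf-2 for 5209 described genes (34.7%), and in the library labelled aak(0) for 801 (5.34%). Of the 5209, 4664 (89.5%) had fewer than 483 reads, or 3 steps, in the library labelled aak(0), and their absence from the other library was not resolved at this depth. The same held for 711 of the 801 (88.8%), which had fewer than 879 reads in the library labelled daf-2. The share with 0 reads in the library labelled daf-2 was 45.4% on chromosome V and 42.9% on X, against 22.6% on III and 23.3% on I. It was 47.9% in the shortest of 4 equal groups of genes by span and 16.07% in the longest, and 66.2% in the lowest of 4 equal groups by mean CPM and 1.44% in the highest. With the intestinal promoter, the 5209 genes were listed at 0 FPKM in 27.7% to 96.1% of cases in the 3 libraries labelled aak(0), 69.8% to 92.9% in the 3 labelled daf-2 and 41.7% with GFP alone. For all described genes these shares were 11.8% to 79.2%, 35.7% to 69.8% and 18.8%.

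**Figure D4:**
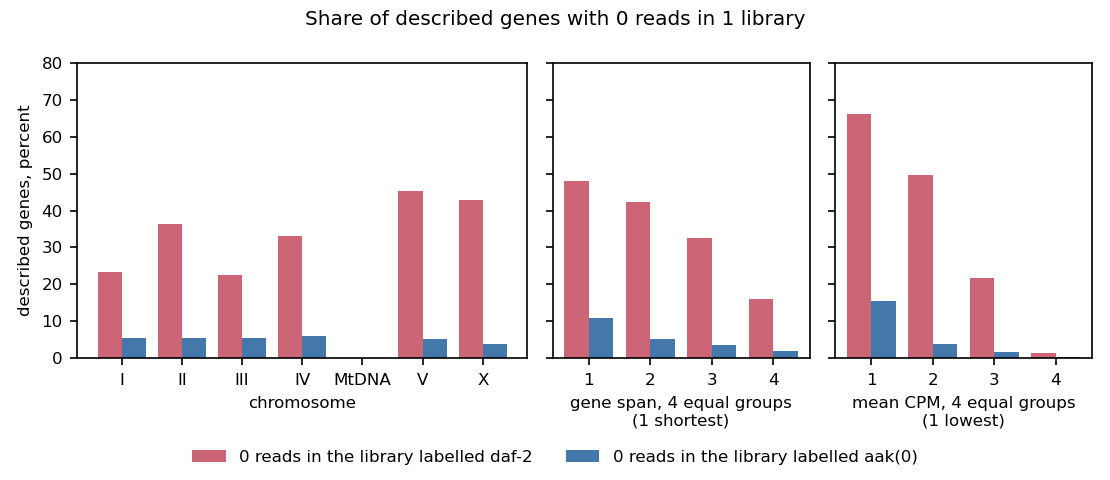
Share of described genes with 0 reads (percent, vertical axis) in the library labelled daf-2 and in the library labelled aak(0), by chromosome, by 4 equal groups of gene span and by 4 of mean CPM. On chromosomes V and X, 45.4% and 42.9% of described genes had 0 reads in the library labelled daf-2, and the share falls from the shortest to the longest genes and from the lowest to the highest level.

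Chemoreceptors, the G protein-coupled receptors by which sensory neurons detect odours and pheromones, were among the genes seen in 1 library. In 8 families (str, srh, sri, srw, srx, srt, sre and srg, chosen after their values were seen) 494 of 862 genes were described, and 404 of them had 0 reads in the library labelled daf-2. Most were described only through the library labelled aak(0), and of all genes in the lower 2 of 4 equal groups by mean CPM 66.2% and 49.6% had 0 reads there, so nothing is read from that number. Detected at all were 627 of the 862 in the library labelled aak(0) and 101 in the library labelled daf-2. Of all 20191 protein-coding genes, 15965 and 10143 were detected, so detection was wider in the library labelled aak(0) for coding genes in general. Their median in the library labelled aak(0) was 199 reads (quartiles 144 and 300), or little over 1 read step. No single chemoreceptor ratio at that level was resolved. Summed over the 862 genes, the families held 5065 CPM in the library labelled aak(0) and 380 CPM in the library labelled daf-2. The wider detection reached beyond coding genes: 798 and 47 of 15363 piRNA genes, 1064 and 289 of 1712 pseudogenes, and 99 and 16 of 634 tRNA genes had a read. How far reads outside annotated features, 48.6% and 4.11%, take part in this was not tested.

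A stricter set held the 1339 genes with at least 10 read steps in either library, which are 1610 reads in the library labelled aak(0) or 2930 in the library labelled daf-2. This set was chosen after the steps were seen. Its median log2 ratio was -0.94 (quartiles -1.55 and -0.37). In it 165 genes (12.3%) lay at least 2-fold above that median and 187 (14%) at least 2-fold below. After argk-1, hmit-1.1 and hzl-1, the highest ratio was that of B0207.5, with 1801 and 75 reads and a log2 ratio of 5.86 (lower limit of the step interval 1.74), followed by aak-2. The polyketide synthase gene pks-1 had 3462 and 213 reads, a log2 ratio of 5.297 (step interval 2.24 to 10.24). The gene attf-5 had 1787 and 140 reads, a log2 ratio of 4.95 (lower limit of the step interval 1.74). The nuclear hormone receptor gene nhr-53 had 3045 and 287 reads, a log2 ratio of 4.68 (step interval 2.01 to 10.04). All 4 lower limits lie above the set's median. Next came cubn-1, a cubilin-related gene with 1710 and 288 reads and a log2 ratio of 3.84 (step interval 1.09 to 9.30). The fibrillin-related gene fbn-1 had 2141 and 612 reads, a log2 ratio of 3.08 (step interval 0.97 to 6.30). The LysM-domain gene lmd-4 had 1699 and 500 reads, a log2 ratio of 3.04 (step interval 0.67 to 6.08), and the laminin gene lam-3 had 2270 and 790 reads, a log2 ratio of 2.80 (step interval 0.79 to 5.07).

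At the low end of the same set stood genes with 0 or few reads in the library labelled aak(0). The transthyretin-related gene ttr-16 had 0 and 6428 reads, and against a floor of 3 read steps it was at least 5.50-fold lower in the library labelled aak(0). The oocyte maturation gene oma-1 had 0 and 4366 reads, and was at least 3.74-fold lower on that floor. Both gpa-16, a G protein alpha subunit gene, and nasp-1, for a histone chaperone, had 0 and 3985 reads, at least 3.41-fold lower. None of these genes had a read in the library labelled aak(0), where the other library held 13.6 to 21.9 steps. The alcohol dehydrogenase gene sodh-1 had 84 and 5312 reads, a log2 ratio of -4.71 (step interval -9.14 to -1.097). The ESCRT gene vps-24 had 85 and 5132 reads, with a log2 ratio of -4.64 (step interval -9.14 to -1.097). All of them carry intervals that exclude 0.

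Among the 12 genes of largest ratio above the median with at least 1000 reads in the higher library, 3 were argk-1, hmit-1.1 and hzl-1. The others had 1025 to 1466 reads in the library labelled aak(0) and 0 to 2 in the other. They were lmd-5 and dhc-3, for a LysM-domain protein and a dynein heavy chain, then oac-51, rnp-1, mgl-3, gcy-22, plc-2, doxa-1 and mks-5. Of these, mks-5 codes for a protein of the ciliary transition zone and gcy-22 for a receptor guanylate cyclase of a taste neuron. Against a floor of 3 read steps their excess was at least 2.82-fold to 4.03-fold. In the other direction lido-8, arl-8, rhi-1, otub-4, moma-1 and psf-3 had 1 read in the library labelled aak(0) and 1013 to 2141 in the library labelled daf-2, and emo-1 had 0 and 2876. Of these 7 genes, lido-8 and emo-1 had step intervals wholly below 0, with upper limits of -0.12 and -0.75.

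Genes of protein synthesis read lower in the library labelled aak(0). Of all genes with 100 reads in both libraries, 21.9% lay at least 2-fold below their median and 22.4% above. Of 29 translation initiation and elongation factors with 100 reads in both libraries, 21 lay at least 2-fold below the median of such genes and 0 above, and their median log2 ratio was -1.399 against 0.20 for all such genes. The elongation factor gene eef-1G had 4204 and 66261 reads, or 175 and 1140 CPM, a log2 ratio of -2.70 (step interval -3.35 to -2.12). The gene eef-1A.1, for the factor that brings aminoacyl-tRNA to the ribosome, had 1262 and 2749 CPM, a log2 ratio of -1.12 (step interval -1.37 to -0.88). For eef-2, the translocation factor, the levels were 732 and 1824 CPM and the log2 ratio -1.32 (step interval -1.64 to -1.01). Of 80 cytosolic ribosomal protein genes with 100 reads in both, 59 lay at least 2-fold below and 2 above, with a median of -1.25. The small-subunit gene rps-4 had 268 and 1136 CPM (log2 ratio -2.09, step interval -2.60 to -1.59), and the large-subunit gene rpl-5 had 292 and 968 CPM (log2 ratio -1.73, step interval -2.22 to -1.24). These are abundant transcripts, and the set of 1339 genes as a whole had a median of -0.94. Within that set 14 of 67 ribosomal protein genes and 3 of 21 translation factor genes lay at least 2-fold below, against 14% of the set, with medians of -1.33 and -1.62. Mitochondrial ribosomal protein genes had a median of 0.25 over 32 genes with 100 reads in both, with 8 above and 7 below, and 0 of them reached 10 steps.

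Chaperone and degradation genes also had medians below that of all genes. Counts are again over genes with 100 reads in both, of which 21.9% lay at least 2-fold below and 22.4% above. Of 28 heat shock and chaperone genes 20 lay at least 2-fold below the median and 0 above, with a median log2 ratio of -1.01. The Hsp70 gene hsp-1 had 339 and 856 CPM (log2 ratio -1.33, step interval -1.81 to -0.87), the Hsp90 gene hsp-90 had 379 and 764 CPM (log2 ratio -1.01, step interval -1.47 to -0.56), and the mitochondrial Hsp70 gene hsp-6 had 133 and 345 CPM (log2 ratio -1.37, step interval -2.17 to -0.64). Of 30 proteasome subunit genes 15 lay at least 2-fold below and 2 above, with a median of -0.87. In the set of 1339 genes the medians were -1.03 for chaperones and -1.29 for the proteasome, against -0.94 for the set. The autophagy receptor gene sqst-1 had 57.7 and 234 CPM (log2 ratio -2.02, step interval -3.16 to -0.90), and lgg-1, the worm's Atg8, had 75.4 and 177 CPM (log2 ratio -1.23, step interval -2.39 to -0.25).

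In energy metabolism, nuclear and mitochondrial genes gave separate values. Their counts are read against all genes with 100 reads in both, 21.9% at least 2-fold below and 22.4% above. Of 33 nuclear genes of the respiratory chain and ATP synthase 17 lay at least 2-fold below the median and 1 above, with a median log2 ratio of -0.97. The ATP synthase genes atp-1 and atp-2 had log2 ratios of -1.52 (step interval -2.26 to -0.85) and -1.45 (step interval -2.03 to -0.90). The adenine nucleotide carrier gene ant-1.1 had 276 and 650 CPM, a log2 ratio of -1.23 (step interval -1.79 to -0.73). Of the 12 genes of the mitochondrial genome 0 lay at least 2-fold below and 1 above, with a median of -0.23. The cytochrome oxidase gene ctc-1 had 2430 CPM in the library labelled aak(0) and 2941 CPM in the library labelled daf-2, a log2 ratio of -0.28 (step interval -0.47 to -0.08), which turned to 0.43 without argk-1 and hmit-1.1 in the library sizes. Among 37 genes of glycolysis, the glyoxylate and TCA cycles and trehalose 18 lay at least 2-fold below and 3 above, with a median of -0.70. In the set of 1339 genes, whose median was -0.94, 11 nuclear respiratory genes had a median of -1.52. There it was -1.42 for 17 genes of the glycolysis list and -0.11 for 8 of the mitochondrial genome. The citrate synthase gene cts-1 had 78.3 and 292 CPM (log2 ratio -1.90, step interval -2.90 to -0.95), and icl-1, for the glyoxylate cycle enzyme by which worms turn stored fat into sugar, had 43.8 and 191 CPM (log2 ratio -2.13, step interval -3.44 to -0.85). The fat oxidation gene cpt-1 had 35.99 and 148 CPM, a log2 ratio of -2.04 (step interval -3.85 to -0.74), while the 16 genes of fat storage and oxidation with 100 reads in both had a median of 0.25.

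Signalling genes of dauer were closer to the median, while the few DAF-16 target and stress defence genes with 100 reads in both mostly lay below it. Among 9 genes of AMPK subunits and the upstream kinase with 100 reads in both, 2 lay at least 2-fold above and 1 below. Their median log2 ratio was -0.25. Of all genes with 100 reads in both, 22.4% lay above and 21.9% below, so nothing is read from the AMPK counts. The gamma subunit gene aakg-5 had 278 and 3377 reads, a log2 ratio of -2.33 (step interval -5.38 to -0.01). A further gamma subunit gene, aakg-1, had 1133 and 4399 reads, a log2 ratio of -0.68 (step interval -2.22 to 0.69). Of 11 insulin pathway genes 0 lay at least 2-fold above and 2 below. The FOXO transcription factor gene daf-16, which daf-2 holds in check, had 183 and 187 CPM, a log2 ratio of -0.03 (step interval -0.82 to 0.71). The steroid hormone receptor gene daf-12 had 144 and 224 CPM, a log2 ratio of -0.64 (step interval -1.48 to 0.12). Of 8 DAF-16 target and stress defence genes with 100 reads in both, 5 lay at least 2-fold below and 1 above. Their median log2 ratio was -1.29. Among them the desiccation protein gene lea-1 had 125 and 382 CPM (log2 ratio -1.61, step interval -2.40 to -0.85). Of all 15 described members of that list, 6 lay at least 2-fold above the median of the described genes and 8 below. No read was found in the library labelled daf-2 for 6 of the 15. In the set of 1339 genes, whose median was -0.94, 4 members had a median of -1.57, with 1 at least 2-fold below and 0 above.

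Tissue markers lay on both sides of the median, and their counts are read against the 22.4% of all genes with 100 reads in both that lay above and the 21.9% that lay below. Of 11 hypodermis markers 5 lay at least 2-fold above the median and 2 below, with a median log2 ratio of 1.00. The cuticle collagen gene rol-6 had 5077 and 2871 reads, or 211 and 49.4 CPM, a log2 ratio of 2.097 (step interval 1.03 to 3.28). Of 26 muscle genes 2 lay above and 10 below, with a median of -0.58. Within muscle the titin-related gene ttn-1 had 678 and 348 CPM (log2 ratio 0.96, step interval 0.50 to 1.42, turned to -0.26 with CPM of protein-coding reads) and the pharyngeal myosin gene myo-2 had 143 and 400 CPM (log2 ratio -1.48, step interval -2.27 to -0.79). Of 15 intestine markers 3 lay above and 3 below, with a median of -0.07, shares near those of all genes, and among them the aspartyl protease gene asp-1 had 88.95 and 26.3 CPM (log2 ratio 1.76, step interval 0.21 to 3.63). The sodium/proton exchanger gene nhx-2, whose promoter drives the intestinal libraries, had 26.7 and 14.2 CPM (log2 ratio 0.91, step interval -1.74 to 3.60). Of 21 neuron markers 4 lay above and 6 below, with a median of -0.10, and the neuropeptide convertase gene egl-3 had 251 and 605 CPM (log2 ratio -1.27, step interval -1.82 to -0.71). Of 32 germline and oocyte genes 2 lay above and 13 below, with a median of -0.53. The translational repressor gene gld-1 had 58.8 and 200 CPM (log2 ratio -1.76, step interval -2.97 to -0.68). In the set of 1339 genes, whose median was -0.94, 15 muscle genes had a median of -0.73, with 3 at least 2-fold above and 1 below. There 8 neuron markers had a median of -0.80, with 2 above and 0 below. For 13 germline and oocyte genes it was -1.09, with 1 above and 3 below. Shares for the whole set were 12.3% above and 14% below, so the muscle genes did not lie lower there. The part of tissue composition in the other differences was not tested.

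Large families of low level stood at the other end. Shares for all genes with 100 reads in both were 22.4% at least 2-fold above and 21.9% below. Of 75 nuclear hormone receptor genes with 100 reads in both libraries, 33 lay at least 2-fold above the median and 7 below, with a median log2 ratio of 0.95. For 58 detoxification genes (cyp, gst and ugt) these counts were 23 and 4 with a median of 0.80, and for 28 C-type lectins they were 12 and 3 with a median of 0.86. Low level alone went with a higher ratio. By 4 equal groups of mean CPM, from the lowest, genes with 100 reads in both had medians of 0.82, 0.59, 0.66 and -0.33. A count of 100 reads is also less than 1 read step in either library. Whether these families exceed other genes of like level was not tested. Over all described members, 107 of 149 C-type lectins, 105 of 213 nuclear hormone receptors and 56 of 102 cuticle collagens had 0 reads in the library labelled daf-2, and most of these were described only through the other library, so nothing is read from those numbers. Few of these genes had enough reads to be read singly, with 3 nuclear hormone receptors, 1 detoxification gene and 1 C-type lectin in the set of 1339. In all, 10 of 37 lists had a median above that of the genes with 100 reads in both and 27 below. These lists hold many of the abundant genes, whose ratios were lower as a class.

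**Figure D5:**
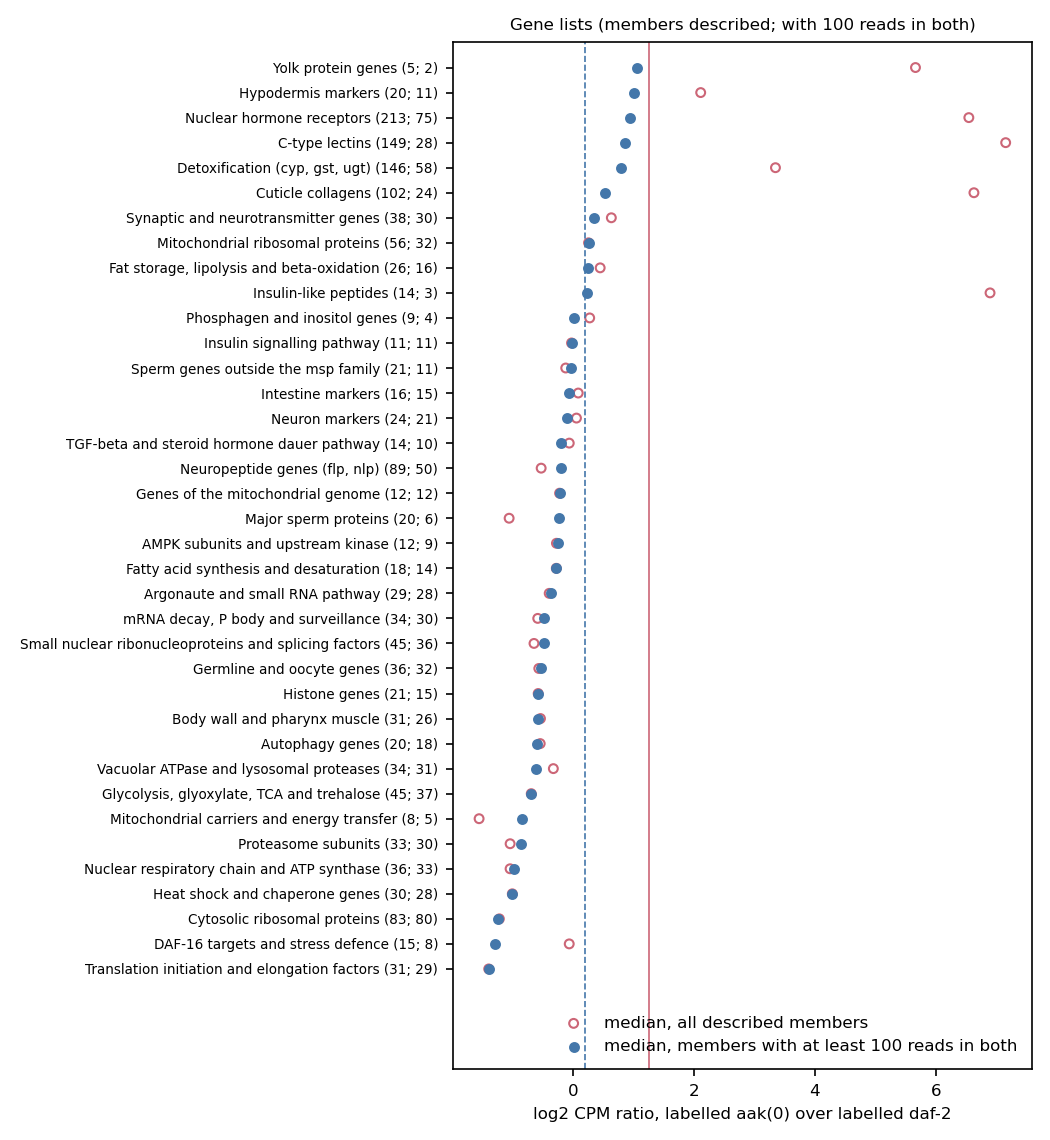
Median log2 CPM ratio, labelled aak(0) over labelled daf-2 (horizontal axis), of each of 37 gene lists, over all described members (open circles) and over members with at least 100 reads in both libraries (filled circles). Numbers in brackets are those members, and the lines mark the medians of all genes, 1.25 (solid) and 0.20 (dashed). Translation factors, DAF-16 targets and ribosomal proteins lie lowest by the filled circles, and the open circles of receptor, lectin and collagen families lie far to the right of the filled ones.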

How the data were processed

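RNA from anti-GFP immunoprecipitates of dauer larvae was measured in 2 libraries made with the endogenous hzl-1 promoter, 1 per genotype, with groups taken from the labels. Their values are raw read counts for each gene, as deposited by the authors. For the 7 intestinal-promoter libraries the deposited FPKM values were copied and set beside these by order only. The tools were STAR 2.7.1a, Trimmomatic 0.35, DESeq2 1.30.1 and RSEM on build WBcel235, per the submitters' processing notes. Settings and strand use were not given in the sources here, and overlapping and antisense genes cannot be separated.

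From the counts, 4 entries that name no gene were set aside and CPM was computed over all gene reads with Python 3.11.15 and pandas 2.3.3. A count of 0 was replaced by 3 reads, which makes the ratio a bound. Ratios carry exact (Clopper-Pearson) 95% binomial intervals from scipy 1.17.1, on reads and on read steps. Steps are the highest maximum of each library's distribution of reads per gene, smoothed with a Gaussian of SD 20 reads. Levels were not corrected for transcript length, since transcript lengths were not given. Groups of genes by mean CPM and the highest genes of each library rest on these uncorrected levels. Gene span from the deposited coordinates replaced the coding length that had been planned. Sequence names of 1117 genes were replaced through a RefSeq gene table (WBcel235). The comparison and its calls were tested on simulated data.

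Named were hzl-1, aak-1, aak-2, daf-2, nhx-2, argk-1 and hmit-1.1, the 10 highest genes of each library, the 12 largest ratios each way with a gene symbol and 1000 reads in the higher library, and 3 members of each of 37 lists with its extremes, from which the text takes a part. Added after seeing the values were the chemoreceptor families, the neighbours of 4 genes, and the extremes among genes with 100 reads in both libraries or with 10 read steps. The genes and lists were chosen with earlier results of these data known. Alternatives were other scalings (TMM factors by edgeR 4.0.16 among them), read minimums, a pseudocount, thinning and a floor of 3 steps.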

Additional observations from a re-analysis of the deposited data

Results flagged for a closer look

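Reads outside any annotated gene feature took 48.6% of all reads in the library labelled aak(0) and 4.11% in the library labelled daf-2. Neither share entered a comparison of genes, and what these reads are was not tested.

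For 19 of the 243 named genes that were described, the order of the endogenous pair was opposite to that of all 6 intestinal-promoter HZL-1 libraries. In those libraries the groups did not overlap for these genes. The share of all genes with such an order is not given here, so nothing is read from the number of genes. The difference between promoters was not tested, and the endogenous pair has 1 library per genotype. With the intestinal promoter most genes were higher in the libraries labelled aak(0), whatever their order in the endogenous pair, by the mean of log2(FPKM + 1). Of all genes with 100 reads in both endogenous libraries, 74.7% had a higher mean in the intestinal libraries labelled aak(0). Of those at least 2-fold below in the endogenous pair 78.0% did. Many values were 0: of the genes with 100 reads in both, 1.91% to 64.8% were at 0 FPKM in the intestinal libraries labelled aak(0). In those labelled daf-2 it was 12.5% to 50.3%. Nothing is read from the 18 to 1 split. Only aak-2 among the 19 genes was higher in the endogenous library labelled aak(0), with a log2 ratio of 5.82. The other 18 were higher in the endogenous library labelled daf-2 and in the intestinal libraries labelled aak(0). In protein synthesis and folding these were eef-1G (-2.70), eef-2 (-1.32) and hsp-6 (-1.37). In energy metabolism they were atp-1 (-1.52), atp-2 (-1.45), cts-1 (-1.90), ogdh-1 (-1.42) and ZC434.8 (-5.83), for a predicted arginine kinase. In membrane traffic and the cytoskeleton they were vha-8 (-1.87), itsn-1 (-1.37), arl-8 (-9.42) and act-5, an intestinal actin (-2.04). In RNA processing they were snrp-200 (-1.02) and rsr-1 (-3.82). The rest were gpa-16 (-9.10, a bound against 3 reads, since it had 0 reads in the library labelled aak(0)), pqn-51 (-9.65), egg-1 (-4.47) and W09D10.4 (-3.39). The step intervals of itsn-1, arl-8, act-5 and ZC434.8 include 0, with upper limits of 0.045, 0.17, 0.15 and 0.54, so the order of the endogenous pair was not resolved for these 4. Values are log2 ratios of labelled aak(0) over labelled daf-2.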

How the results depend on the processing

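The libraries labelled aak(0) and daf-2 were compared under 12 alternatives, 3 of them chosen after seeing the data. The median log2 ratio of the described genes, 1.25, was set by which genes were counted and by the scaling. It was 0.022 with CPM of protein-coding reads, 1.05 with median-of-ratios scaling, 1.09 with TMM scaling, 1.95 without argk-1 and hmit-1.1 in the library sizes, 1.13 with a pseudocount of 1 CPM and 1.59 for genes with at least 1 read. These scalings shift every ratio alike, by -1.23 to 0.70, so positions relative to the median stay. The sign of the ratio itself turned for 19 of 241 named genes with CPM of protein-coding reads, 2 with median-of-ratios, 2 with TMM and 34 without argk-1 and hmit-1.1, ttn-1 in the first case (to -0.26) and ctc-1 in the last (to 0.43). With at least 100 reads on the mean at equal depth the median was 0.80 and 3575 genes lay at least 2-fold below. With 100 reads in both libraries it was 0.20, with 1676 genes above and 1637 below. With at least 1000 reads in either library it reversed to -0.66, with 614 above, 717 below, and 18 lists above the median in place of 7. With a floor of 3 read steps it was 0.11, with 496 above, 911 below and 13 lists above. In each case fewer genes of low count enter.

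List medians relative to that of all genes changed sign in 13 cases. With the mean of 100 reads this was -0.58 for insulin-like peptides. With 1000 reads it was 0.53 for AMPK subunits, 0.54 for the insulin pathway, 0.45 for the TGF-beta and steroid pathway, 0.55 for the mitochondrial genome, 0.062 for intestine, 0.076 for neuron markers, 0.63 for sperm genes, 0.11 for Argonautes and 0.16 for fatty acid synthesis. With the floor of 3 steps it was 0.31 for AMPK subunits, 0.25 for the TGF-beta and steroid pathway and 0.34 for sperm genes. On that floor the log2 ratio of 6 named genes turned from below to above 0, to 0.29 for hsp-25, 0.14 for ldh-1, 0.35 for pat-10, 0.068 for nlp-38, 0.39 for mrps-12 and 0.21 for psf-3. Thinning the deeper library and counting the protein_coding category alone left the counts of genes within 1.5 times. No paired analysis was possible because each genotype had 1 endogenous-promoter library.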
